A study of Mus musculus with 4 samples.

Results

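The antiviral genes that type I interferons switch on were followed here as a set of 38 genes, chosen because interferon is known to induce them and found by gene name among the non-control spots of 4 one-colour arrays that carried 37074 gene names in all. All 38 were well above background on all 4 arrays and entered the fit of 19325 genes. The arrays measured RNA from whole colons, taken from C57BL/6 mice on day 5 of drinking dextran sulphate sodium (DSS), a compound that damages the colon epithelium and causes colitis. The 2 mutant mice were Junb fl/fl Cd4-Cre and the 2 controls were Junb fl/fl without the recombinase. Cd4-Cre removes the floxed alleles of Junb, a transcription factor gene of the AP-1 family, in the T cell lineage, both CD4+ and CD8+ cells, and leaves them in place in the epithelium, stroma and myeloid cells, which make up most of a whole colon. All 4 mice had received DSS, and the study's labels do not give their sex or age.

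Type I interferons bind a receptor found on nearly all cells and activate the kinases Jak1 and Tyk2. The signal passes through a complex that includes Stat2 and Irf9 and binds the interferon-stimulated response element (ISRE) in the promoters of antiviral genes. Type III interferons use another receptor, found mainly on epithelial cells, and lead to the same complex. Interferon gamma acts mainly through a different element, the gamma-activated site (GAS), so the genes it induces overlap only in part with the antiviral set. The products of the set sense viral RNA, degrade or sequester it, block entry, copying or release of virus, or carry and curb the signal itself.

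The arrays lay on 1 slide with 1 scan time. The 75th percentile of their intensity was 310.9 and 268.5 in the mutants and 330.0 and 328.6 in the controls, and 27935 to 29090 probes were well above background on an array. Values below are scaled intensities, which are processed spot intensities brought to a common 75th percentile of 308.5, and they compare a gene only with itself between arrays. Junb had 6684 and 6825 in the mutants, against 5782 and 6448 in the controls (log2 difference 0.15 ± 0.11, limma unadjusted p = 0.235, adjusted p = 0.691), which checks nothing about a deletion limited to T cells. Xist was 181 on the replicate 1 mutant array and 211 on the replicate 1 control array, against 3.57 and 4.42 on the replicate 2 arrays of mutant and control. The Y-linked gene Eif2s3y ran the other way. Replicate 1 was therefore a female and replicate 2 a male mouse in each genotype, and differences are given also within these pairs.

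The ISRE letters, taken as GAAA, any 2 bases and GAAA again (TTTC, any 2 bases and TTTC on the other strand), were looked up in the promoters of the set, because they are the shared element through which these genes are known to respond. Promoters from 250 bases before to 50 bases after a gene's start came from RefSeq, build GRCm38.p6, and were at hand for 27 of the 38 genes. The letters were present in 13 of the 27 genes (48.1%), against 1079 of 27025 genes of the whole table (3.99%). The GAS letters, TTC, any 3 bases and GAA, were present in 5 of the 27 (18.5%), against 9.55% of all genes, and overlapped the ISRE letters in Bst2. The stretches shown lie before the start, read 5′ to 3′ on the strand of the gene, and carry the ISRE letters in capitals. They were chosen to set genes that lay lower in the mutants (Ifit3, Ifit1, Rsad2) beside 1 that lay higher (Bst2). The others chosen (Isg15, Oas1a, Oas1g, Oas3) had groups that overlapped.
Ifit3 (chr19:34583358-34583431, plus strand): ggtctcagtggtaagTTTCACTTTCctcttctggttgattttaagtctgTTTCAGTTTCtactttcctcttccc
Ifit1 (chr19:34640770-34640828, plus strand): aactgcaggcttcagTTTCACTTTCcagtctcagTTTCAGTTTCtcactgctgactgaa
Rsad2 (chr12:26456548-26456587, minus strand): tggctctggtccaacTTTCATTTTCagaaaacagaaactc
Isg15 (chr4:156200860-156200911, minus strand): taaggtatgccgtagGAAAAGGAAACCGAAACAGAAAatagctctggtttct
Oas1a (chr5:120907526-120907560, minus strand): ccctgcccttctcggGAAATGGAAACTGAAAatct
Oas1g (chr5:120887614-120887646, minus strand): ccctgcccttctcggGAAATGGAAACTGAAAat
Oas3 (chr5:120777710-120777749, minus strand): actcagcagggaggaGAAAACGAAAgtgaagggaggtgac
Bst2 (chr8:71537572-71537617, minus strand): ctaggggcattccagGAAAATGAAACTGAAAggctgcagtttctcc
Overlapping copies of the letters formed a run of 3 in Isg15 and of 2 in Oas1a, Oas1g and Bst2, while Ifit1 and Ifit3 held 2 separate copies. The stretches of Oas1a and Oas1g had the same letters around and in their runs. By this choice, the same letters stood before genes that lay lower, higher or with overlapping groups. The 13 genes with the letters had a median log2 difference of -0.08 and the 14 without them in this window -0.11, and 10 and 11 of them were lower.

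The antiviral genes differed little between the genotypes. No member passed an adjusted p of 0.05 in limma (smallest 0.418), and no gene of the 19325 did (0% called, with 1796 genes at an unadjusted p under 0.05). With the replicate number as a block, 46 genes passed an adjusted p of 0.05 (0.238%), and 0 of them were members. The median log2 difference of the 38 genes, mutant minus control, was -0.08, against 0.02 over all genes. Of the 38, 27 were lower and 11 higher, where 46.6% of all genes were lower and 53.4% higher. The number below 0 depended on the scaling, with 20 of 38 lower after median centring, which raised the median of all genes to 0.10, and 30 of 38 after quantile normalization. At an unadjusted p under 0.05, 3 members were higher (background 5.31%) and 4 lower (background 3.98%), or 7 of 38 (18.4%) against 9.29% of all genes. The count of 7 was 3 without control replicate 1, 8 without control replicate 2, 2 without mutant replicate 1 and 1 without mutant replicate 2.

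The intervals of most members stayed within a 2-fold change, but fewer stayed within 1.5-fold. The median standard error was 0.13 for the members and 0.17 over all genes. All members were well above background on 4 arrays, while 2 arrays sufficed for a gene to be tested. The 95% interval of 36 members lay within a 2-fold change either way (94.7%, against 78.1% of all genes), the exceptions being Herc6 and Mx1. That of 20 members lay within 1.5-fold (52.6%, against 43.1%). A difference of 2-fold or more together with an unadjusted p under 0.05 was found for 0 members, against 1.36% of all genes. Both mutant arrays lay below both controls for 10 members (background 17.6%) and above them for 4 (background 25.7%), and the groups overlapped for the other 24. An exact permutation test of 2 against 2 arrays cannot go below p = 0.333. Both pairs gave a lower value for 21 members (55.3%, background 29.1%) and a higher one for 7 (18.4%, background 36.3%).

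**Figure D1:**
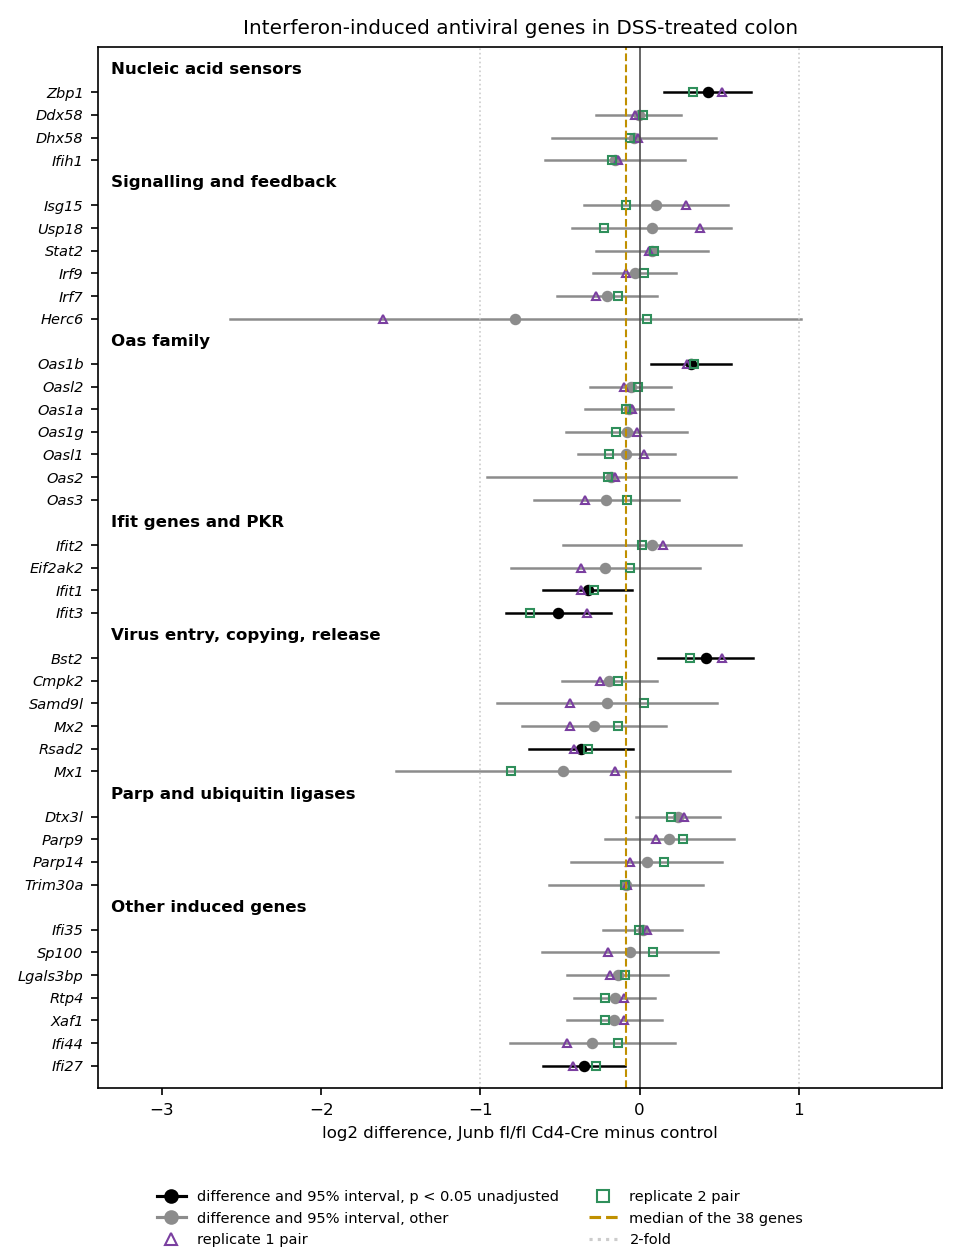
Log2 difference (Junb fl/fl Cd4-Cre minus control) of each of the 38 genes on the horizontal axis, with its 95% interval from limma, genes grouped by role. Black marks the 7 genes at an unadjusted p under 0.05, triangles and squares give the difference within the replicate 1 and replicate 2 pairs, and the dashed line is the median of the set at -0.08. All differences but that of Herc6 (-0.78) lie between -0.51 and 0.43.

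Among the sensors of viral nucleic acid, 1 of 4 stood out. Zbp1, which binds left-handed RNA and DNA and can start necroptosis, had a scaled intensity of 3687 and 3352 in the mutants, against 2573 and 2653 in the controls (probe at chr2:173039307-173039366, mm9). Both mutants lay above both controls. Zbp1 was 1.35-fold higher (log2 difference 0.43 ± 0.11, SE, n = 2 and 2, limma unadjusted p = 0.0101, adjusted p = 0.418), with 0.52 in the replicate 1 pair and 0.34 in the replicate 2 pair, and without mutant replicate 1 it was 0.36 with an unadjusted p over 0.05. A second Zbp1 probe gave a log2 difference of 0.60. None of the 3 helicase genes for sensing viral RNA in the cytoplasm passed an unadjusted p of 0.05. Ddx58, which encodes RIG-I, had 1368 and 1355 in the mutants, against 1396 and 1335 in the controls, and its log2 difference was -0.00 ± 0.10 with a 95% interval of -0.27 to 0.26. Its 3 other probes gave -0.31, 0.11 and 0.22. Ifih1, encoding the sensor MDA5, had 1262 and 1007 in the mutants, against 1387 and 1133 in the controls (-0.15 ± 0.17). Dhx58, encoding a relative that tunes these sensors, had 574 and 435 in the mutants, against 577 and 453 in the controls (-0.03 ± 0.20). For Dhx58 and Ifih1 the replicate 1 array was the higher in each genotype, so the groups overlapped.

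None of the 6 genes that carry and limit the interferon signal passed an unadjusted p of 0.05 in the fit without a block, and the groups overlapped for 5 of them. Stat2 had 2912 and 2534 in the mutants, against 2794 and 2375 in the controls (0.08 ± 0.14), and Irf9, its DNA-binding partner, had 2438 and 2578 in the mutants, against 2589 and 2528 in the controls (-0.03 ± 0.10). Irf7, the factor that amplifies interferon production, had 26806 and 31287 in the mutants, against 32449 and 34362 in the controls. Both mutants lay below both controls, and the log2 difference was -0.21 ± 0.12 (limma unadjusted p = 0.154, adjusted p = 0.639). A second Irf7 probe gave -0.34. Irf7 passed an unadjusted p of 0.05 with the replicate number as a block (same difference) and with quantile normalization (-0.43). The ubiquitin-like modifier gene Isg15 had 11605 and 12315 in the mutants, against 9471 and 13079.5 in the controls (0.10 ± 0.18), and the lowest of the 4 values was a control. Usp18, which removes Isg15 from proteins and blocks the interferon receptor, had 1543 and 1071 in the mutants, against 1186 and 1251 in the controls (0.08 ± 0.20). Its mutant values enclosed the controls. Herc6, the mouse ligase that attaches Isg15, had 82.6 and 59.4 in the mutants, against 252 and 57.6 in the controls. A single control array was far above the other 3, and the log2 difference of -0.78 ± 0.70 became 0.28 without control replicate 1 and -1.85, past an unadjusted p of 0.05, without control replicate 2.

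The oligoadenylate synthetase family, whose active members make the messenger that turns on the RNA-cutting enzyme RNase L, had 6 of 7 genes lower by sign, with a median of -0.08. Oas1a, an active synthetase, had 20454 and 18671 in the mutants, against 21102 and 19844 in the controls (-0.07 ± 0.11). Oas1g had 618 and 509.6 in the mutants, against 624 and 564 in the controls (-0.08 ± 0.15), and Oas3 had 429.9 and 389 in the mutants, against 545 and 411 in the controls (-0.21 ± 0.18). For each of these genes the groups overlapped. Oas2 had 3271 and 2049.7 in the mutants, against 3647 and 2349.7 in the controls. Its mice of the same replicate number were closer to each other than mice of the same genotype, and the difference was -0.18 ± 0.31. The related Oasl1, which restrains translation of Irf7 in mice, had 8543 and 8589 in the mutants, against 8378 and 9824 in the controls (-0.08 ± 0.12). Oasl2 had 7472 and 7475 in the mutants, against 8003 and 7530.3 in the controls (-0.05 ± 0.10), and it alone among these genes had both mutants below both controls, by a small margin.

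Oas1b stood apart from its family. Its main probe (chr5:121274109-121274168, mm9) had 9289.9 and 9120.3 in the mutants, against 7539.6 and 7202 in the controls, and both mutants lay above both controls. Oas1b was 1.25-fold higher (0.32 ± 0.10, limma unadjusted p = 0.0215, adjusted p = 0.458), with 0.30 in the replicate 1 pair and 0.34 in the replicate 2 pair. Most laboratory strains, C57BL/6 among them, carry a form of this flavivirus resistance gene with an early stop codon. A second, dimmer Oas1b probe went the other way, with a difference of -0.22, and the mean of both probes differed by 0.05. Its unadjusted p was over 0.05 for that mean, after quantile normalization (0.17), without the intensity trend and without control replicate 2 (0.29), mutant replicate 1 (0.31) or mutant replicate 2 (0.33). The Oas1 genes are near copies of each other, and binding of 1 gene's RNA to another's probe was not tested.

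Ifit proteins bind viral RNA that lacks the marks of host messenger RNA. Ifit3 had 1284 and 1125 in the mutants, against 1616 and 1810.4 in the controls (probe at chr19:34663105-34663164, mm9), and both mutants lay below both controls. It was 1.42-fold lower (-0.51 ± 0.13, limma unadjusted p = 0.0103, adjusted p = 0.418), with -0.33 in the replicate 1 pair and -0.69 in the replicate 2 pair, and its unadjusted p was over 0.05 with median centring (-0.43) and without mutant replicate 2 (-0.41). Its near copy Ifit3b had 526 and 369.9 in the mutants, against 592 and 707 in the controls (-0.55 ± 0.21), and binding of either RNA to the other's probe was not tested. Ifit1, the member that binds the end of such RNA, had 756 and 788 in the mutants, against 974 and 962 in the controls (probe at chr19:34723827-34723886, mm9). The groups did not overlap here either, and Ifit1 was 1.25-fold lower (-0.33 ± 0.11, limma unadjusted p = 0.0292, adjusted p = 0.489). Ifit2 did not follow, with 687 and 491 in the mutants, against 621 and 486 in the controls (0.08 ± 0.22). Eif2ak2, encoding the kinase PKR that halts translation on sensing double-stranded RNA, had 489 and 403 in the mutants, against 629.7 and 421 in the controls (-0.21 ± 0.23). Its highest value was a control and its lowest a mutant, with the others between them. When any 1 of the 4 arrays was left out, Ifit1 differed by -0.36 to -0.30 with an unadjusted p over 0.05, as it also had with median centring (-0.24) and without the intensity trend.

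The genes whose products act on entry, copying and release of virus were lower in 5 of 6 cases. Rsad2 encodes viperin, which makes a chain terminator of viral RNA synthesis. It had 459 and 517 in the mutants, against 612 and 646 in the controls (probe at chr12:27127859-27127918, mm9). The groups did not overlap, and Rsad2 was 1.29-fold lower (-0.37 ± 0.13, limma unadjusted p = 0.0334, adjusted p = 0.501). A second probe gave -0.42. Its neighbour in the genome Cmpk2, a mitochondrial nucleotide kinase gene, had 609 and 662 in the mutants, against 722 and 725 in the controls (-0.19 ± 0.12, limma unadjusted p = 0.164, adjusted p = 0.645), again without overlap. When any 1 array was left out, Rsad2 differed by -0.45 to -0.28 with an unadjusted p over 0.05. The same held with median centring (-0.29) and without the intensity trend.

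Bst2 ran against this group. It encodes tetherin, which holds budding virus at the cell surface and is also a surface marker of plasmacytoid dendritic cells and plasma cells. It had 3064 and 3058 in the mutants, against 2139.9 and 2459 in the controls (probe at chr8:74058603-74058662, mm9), and both mutants lay above both controls. Bst2 was 1.33-fold higher (0.42 ± 0.12, limma unadjusted p = 0.0154, adjusted p = 0.43), with 0.52 in the replicate 1 pair and 0.31 in the replicate 2 pair. Its unadjusted p was over 0.05 without control replicate 1 (0.32), mutant replicate 1 (0.41) or mutant replicate 2 (0.42). Siglech, the defining surface gene of plasmacytoid dendritic cells, had 15607 and 16174 in the mutants, against 18144 and 15077 in the controls (-0.06 ± 0.13).

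The Mx genes encode dynamin-like proteins that trap viral nucleoproteins, and most laboratory mouse strains carry defective forms. Mx1 had 595 and 267 in the mutants, against 661 and 466 in the controls. A single mutant array was far below the other 3, and Mx1 differed by -0.48 ± 0.41, or 0.10 without mutant replicate 2 and -1.06, past an unadjusted p of 0.05, without mutant replicate 1. With the replicate number as a block, Mx1 passed an unadjusted p of 0.05 at the same difference. Mx2 had 266 and 250.5 in the mutants, against 360.3 and 275 in the controls (-0.29 ± 0.18), with both mutants below both controls and a difference of -0.48, past an unadjusted p of 0.05, without control replicate 2. Samd9l, a restriction factor gene for poxviruses, had 2035 and 1668 in the mutants, against 2751 and 1635 in the controls (-0.20 ± 0.27). Its control replicate 1 was the highest of the 4 arrays, and without it the difference was 0.17, against -0.58, past an unadjusted p of 0.05, without control replicate 2.

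The Parp and ubiquitin ligase genes leaned the other way, with 3 of 4 higher and a median of 0.12. Parp9 and Dtx3l encode proteins that work as 1 complex and lie side by side on chromosome 16. Dtx3l had 2131 and 2129 in the mutants, against 1752 and 1858 in the controls, without overlap (0.24 ± 0.10, limma unadjusted p = 0.0672, adjusted p = 0.565). Parp9 had 2215 and 1956 in the mutants, against 2066 and 1621 in the controls, with overlap (0.19 ± 0.16). A much dimmer Parp9 probe, above background on 2 arrays, gave 0.65, and the mean of both probes differed by 0.42, past an unadjusted p of 0.05. Parp14, a neighbour of both, had 3464 and 2944 in the mutants, against 3617 and 2651 in the controls (0.04 ± 0.19). Trim30a, a mouse gene whose product restrains signals of Toll-like receptors, had 587 and 462 in the mutants, against 620.0 and 492 in the controls (-0.08 ± 0.19), and its 3 probes gave -0.19 to -0.03.

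Of the remaining 7 induced genes, 6 were lower by sign, with a median of -0.15. Ifi27, encoding a small mitochondrial and nuclear membrane protein, had 5040.1 and 5346 in the mutants, against 6746 and 6472 in the controls (probe at chr12:104678353-104678412, mm9), and both mutants lay below both controls. It was 1.27-fold lower (-0.35 ± 0.10, limma unadjusted p = 0.0178, adjusted p = 0.437), with -0.42 in the replicate 1 pair and -0.28 in the replicate 2 pair. A second probe gave -0.37. The unadjusted p was over 0.05 with median centring (-0.27) and without control replicate 1 (-0.32), mutant replicate 1 (-0.31) or mutant replicate 2 (-0.39). Rtp4 had 5979.9 and 5799.7 in the mutants, against 6388 and 6728 in the controls (-0.15 ± 0.10). Xaf1, a gene that favours apoptosis, had 1180.2 and 1049 in the mutants, against 1261 and 1222 in the controls (-0.16 ± 0.12). For Rtp4 and Xaf1 the groups did not overlap, and neither passed an unadjusted p of 0.05. Ifi44 had 333 and 295 in the mutants, against 456 and 325 in the controls (-0.30 ± 0.20, or -0.54, past an unadjusted p of 0.05, without control replicate 2). Lgals3bp, encoding a secreted binder of galectins, had 15903 and 18473 in the mutants, against 18063 and 19687 in the controls (-0.14 ± 0.12). Sp100, of the nuclear bodies, had 341 and 289 in the mutants, against 391 and 273 in the controls (-0.06 ± 0.22), and Ifi35 had 6168 and 5951 in the mutants, against 5966 and 5973 in the controls (0.02 ± 0.10). The groups overlapped for these 4 genes.

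**Figure D2:**
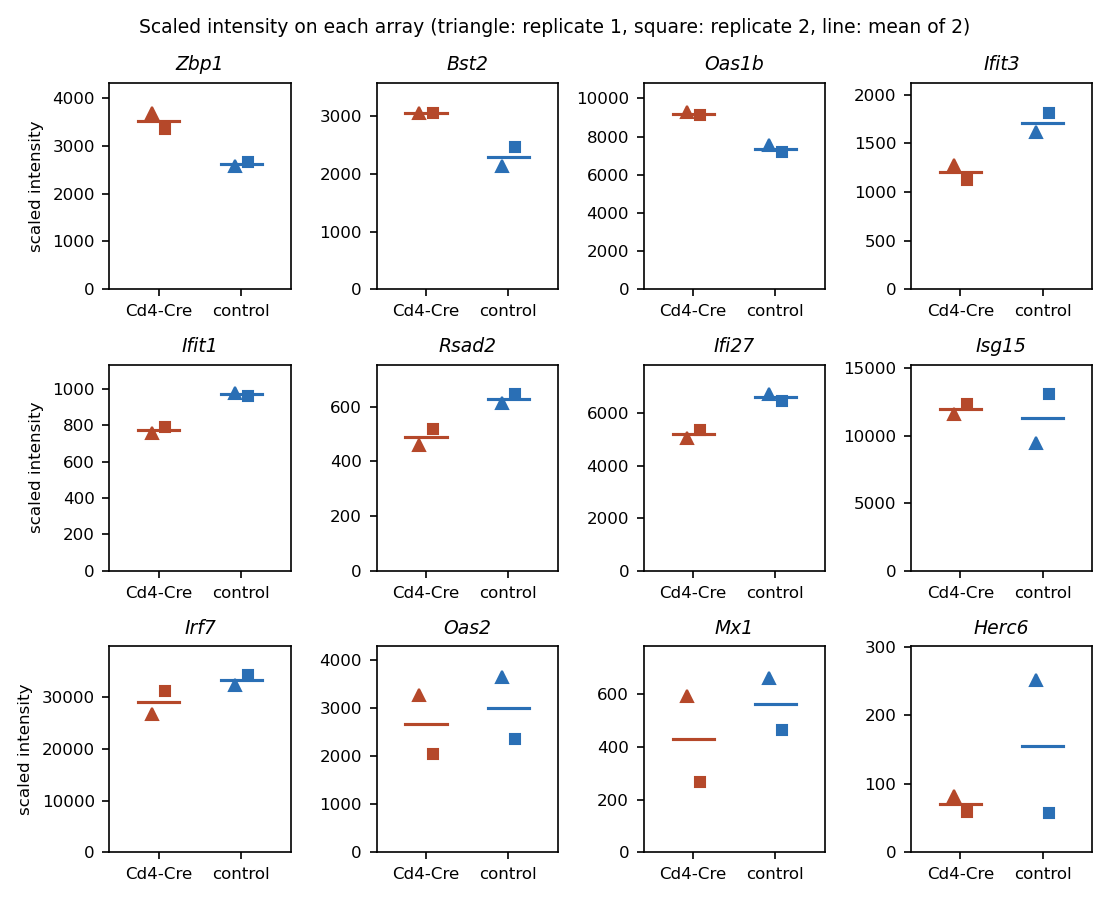
Scaled intensity of 12 of the genes on each array, with Junb fl/fl Cd4-Cre left and control right in each panel, triangles for replicate 1, squares for replicate 2 and lines for the mean of the 2 arrays. The first 7 panels are the genes at an unadjusted p under 0.05, whose groups do not overlap, while in the Oas2 panel the triangles lie above the squares in both genotypes and in the Herc6 panel 1 control array at 252 lies above the other 3.

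The antiviral genes also differed between the mice of 1 genotype, and the replicate 1 array was more often the higher in both genotypes than over all genes. The replicate 1 array was above the replicate 2 array in both genotypes for 21 of 38 members (55.3%), against 26.2% of all genes, and below it in both for 6 (15.8%), against 36.8%. Other interferon lists had this too, with the replicate 1 array above in both genotypes for 64.3% of the 42 other interferon-induced genes and 84.2% of the 19 genes responsive to interferon gamma. Oas2 differed by 0.67 between the mutants and 0.63 between the controls (log2, replicate 1 minus replicate 2), and Mx1 by 1.16 between the mutants and 0.50 between the controls. Samd9l differed by 0.29 between the mutants and 0.75 between the controls. Isg15 went the other way, by -0.09 between the mutants and -0.47 between the controls. Over the 38 genes the median of this difference was 0.14 in the mutants and 0.08 in the controls, against -0.04 in the mutants and -0.03 in the controls over all genes. Replicate 1 was female and replicate 2 male, with 1 mouse of each sex in a genotype, so sex and the single mouse cannot be told apart. The shift was not tested.

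**Figure D3:**
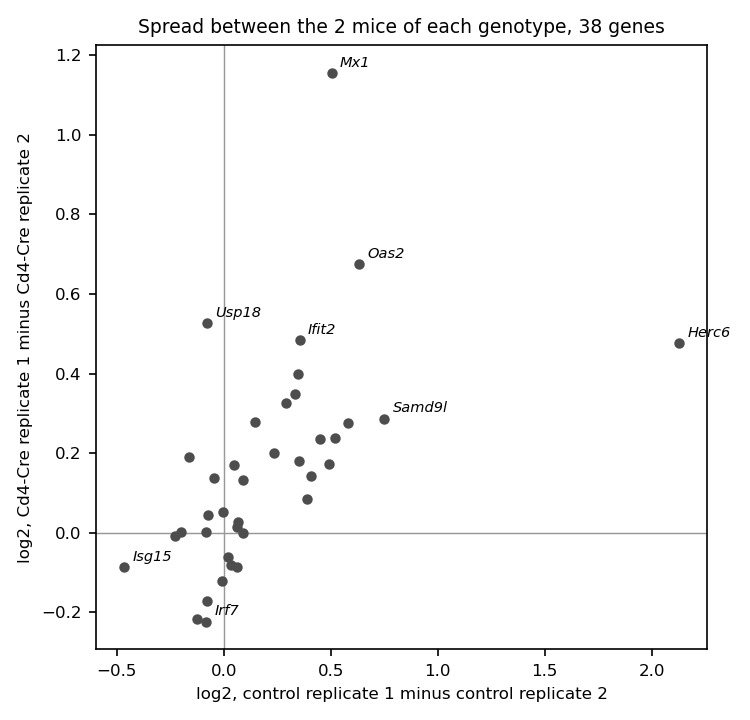
Each point is 1 of the 38 genes, with the log2 difference between control replicate 1 and control replicate 2 on the horizontal axis and that between the 2 Junb fl/fl Cd4-Cre mice on the vertical axis. Above 0 on both axes lie 21 genes, with Mx1, Oas2 and Herc6 farthest out, and below 0 on both lie 6.

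The interferons themselves were at the edge of detection. Of 16 listed type I interferon genes, 14 were on the array and only Ifnk was tested, with 41.2 and 34.9 in the mutants, against 38.2 and 28.8 in the controls (0.19 ± 0.28). No array had Ifnb1 well above background. Ifnl3, a type III interferon gene, was well above background on 3 arrays, not on that of control replicate 2, with 28.9 and 31.3 in the mutants, against 30.6 in control replicate 1. Of 9 receptor and kinase genes tested, 5 were higher and 4 lower, with a median of 0.05, and none passed an unadjusted p of 0.05 in limma. The kinase genes Tyk2 and Jak1 differed by 0.16 ± 0.26 and -0.06 ± 0.10, and Il10rb, a subunit of the type III receptor, by 0.08 ± 0.14.

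Genes that act before interferon is made had a median of 0.08 over 14, with 9 higher and 5 lower. Tmem173, which encodes the adaptor STING of the DNA-sensing pathway, had 1625 and 1279 in the mutants, against 995 and 994 in the controls (0.54 ± 0.15, limma unadjusted p = 0.0153, adjusted p = 0.43), and it was the only 1 of the 14 at an unadjusted p under 0.05 (7.14%, background 9.29%). The DNA sensor gene Mb21d1 differed by -0.37 ± 0.18, the Toll-like receptor adaptor gene Myd88 by 0.32 ± 0.14, and Mavs, the adaptor of RIG-I and MDA5, by 0.19 ± 0.10. Of 42 other interferon-induced genes tested, 27 were higher and 15 lower, with a median of 0.07, and at an unadjusted p under 0.05 there were 7 higher (16.7%, background 5.31%) and 1 lower (2.38%, background 3.98%). The higher ones included Gm12250 (1.18 ± 0.17) and Ifi47 (0.72 ± 0.12), which encode GTPases of the immunity-related family. Samhd1, which depletes nucleotides that viruses need, differed by 0.50 ± 0.12, and Ifi205, of a family of DNA-binding proteins, by 0.63 ± 0.15. The lower one was Ifit3b.

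Genes that respond to interferon gamma ran differently in the same arrays. All 19 tested were higher, with a median of 1.09, and 17 had an unadjusted p under 0.05 (89.5%, against 18.4% of the antiviral genes and 9.29% of all genes). The median ranged from 0.75 to 1.38 without 1 array, while that of the antiviral genes ranged from -0.18 to 0.0014. Ifng had 112 and 83.1 in the mutants, against 33.3 and 21.4 in the controls (1.85 ± 0.32), the T cell attractant Cxcl9 had 938 and 1262 in the mutants, against 298 and 215 in the controls (2.10 ± 0.23), and the tryptophan-degrading enzyme gene Ido1 had 7191 and 7357 in the mutants, against 2667 and 2272 in the controls (1.56 ± 0.12). A difference of 2-fold or more together with such a p was found for 12 of these 19 genes and 0 of the 38 antiviral genes. Among genes with a promoter at hand, 9 of 13 of the gamma-responsive genes held the ISRE letters (69.2%) and 6 of 13 the GAS letters (46.2%). Of the antiviral genes, 13 of 27 held the ISRE letters (48.1%) and 5 of 27 the GAS letters (18.5%). Both shares were thus higher in the gamma-responsive list. The gamma-responsive list includes Ifng itself. Both lists were chosen with earlier results of these data known, and they were not compared by a test.

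**Figure D4:**
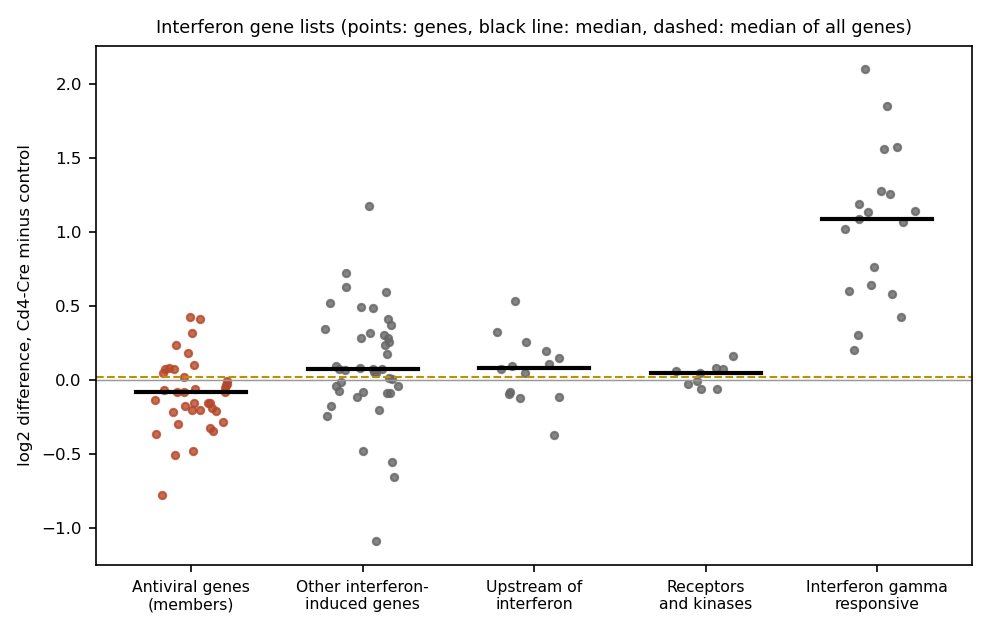
Log2 difference (Junb fl/fl Cd4-Cre minus control) of each gene in the antiviral set and in 4 further lists, with the median of each list as a black line and that of all genes as a dashed line. The antiviral set is centred at -0.08 and none of its points lies above 0.43, while the 19 interferon gamma responsive genes are centred at 1.09 and lie at 0.20 or above.

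Markers of some cell types moved with genotype in the same tissue. The summed scaled intensity of 11 tested T cell genes, of 12 listed, was 2604 to 2808 in the mutants and 3237 to 3505 in the controls, and 10 of the 11 were lower. That of 7 smooth muscle genes was 84260 to 87694 in the mutants and 113637 to 124685 in the controls, and all 7 were lower. That of 7 tested neutrophil genes, of 9 listed, was 18843 to 25210 in the mutants and 16089 to 17553 in the controls, and 4 of the 7 were higher. The gap between the neutrophil sums rests on S100a8 (2.24 ± 0.78) and S100a9 (2.24 ± 0.88), for calcium-binding proteins of neutrophils. The dimmer genes Ltf (1.48 ± 0.26) and Retnlg (1.92 ± 1.40) were also higher. Both mutants lay above both controls for Ltf, and the groups overlapped for Retnlg. Csf3r, the receptor gene of their growth factor, differed by -0.01 ± 0.13, Ly6g by -0.14 ± 0.30 and Camp by -0.22 ± 0.35. The T cell receptor gene Cd3d differed by -0.48 ± 0.15 and the co-receptor gene Cd8b1 by -0.96 ± 0.21. The groups overlapped for Cd4 (-0.03 ± 0.14) and Cd247 (0.04 ± 0.18). The co-receptor gene Cd8a, counted among the 10, was detected above background only on the 2 control arrays and entered the fit through them. Epithelial genes (12) summed to 421054 to 476759 in the mutants and 448942 to 449981 in the controls, and macrophage and monocyte genes (10) to 106238 to 132126 in the mutants and 100737 to 111366 in the controls, and both of these ranges overlapped. The sums of 6 endothelial genes, 702 to 967 in the mutants and 981 to 1243 in the controls, and of 5 B cell genes, 2054 to 2382 in the mutants and 2560.2 to 2628 in the controls, did not overlap. Of 8 plasmacytoid dendritic cell genes, 6 were lower by sign. The sum of the 8 was 36421 to 38575 in the mutants and 41719 to 45354 in the controls. The gap between these sums rests on Klk1 (-0.73 ± 0.13), which colon epithelium also expresses. Klk1 had 9142 and 11243 in the mutants, against 16908 and 16662 in the controls. Both mutants also lay below both controls for Spib (-0.31 ± 0.11), Ptprs (-0.24 ± 0.14) and Ccr9 (-0.18 ± 0.32). With Klk1 this made 4 of the 8 (50%, background 17.6%), and 1 of the 8 lay above (12.5%, background 25.7%). For Siglech the groups overlapped, and Irf8, which other myeloid cells share, differed by 0.62 ± 0.15. In whole tissue, fewer cells of a type and less RNA per cell cannot be told apart, and the part of these shifts in the antiviral genes was not tested.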

How the data were processed

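The data were 4 one-colour Agilent arrays, 2 per genotype. Scanner images were turned into the deposited intensity values by version 11.5.1.1 of Agilent Feature Extraction. The submitters' processing notes name this software, and per the file headers it corrected background and detrended within each array, with no normalization between arrays recorded. Control and outlier-flagged spots were removed, spots of a probe averaged, and log2 intensities set against each array's 75th percentile. A gene took its brightest probe well above background on at least 2 arrays. Mutant minus control was tested two-sided with limma 3.58.1 in R 4.3.3 (lmFit, eBayes with trend, Benjamini-Hochberg over 19325 genes), first tested on simulated data. Errors are limma's moderated standard errors with 5.12 degrees of freedom, and p-values cover the spread of 2 mice a group. These were 1 female and 1 male, so outside the blocked fit that spread holds any sex difference. The number of arrays limits the precision. Genes named were all members, and for other lists a choice of genes with a small p, with defining roles or running the other way. Not every gene with the smallest p of its list is named, and for some marker lists only the sum is given. Members and lists were chosen with earlier results of these data known, and 1 gene of the receptor and kinase list is not reported here. Promoters came from RefSeq (GRCm38.p6), and all 38 symbols matched its gene table. Probe positions (mm9) are those in the files.

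The alternatives tried were normexp background correction (offset 50), quantile normalization, median centring, other filters on dim probes, the mean of a gene's probes, no intensity trend, the replicate number as a block and leaving out each array.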

Additional observations from a re-analysis of the deposited data

Results flagged for a closer look

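Usp18 differed in direction between the replicate pairs, which were female for replicate 1 and male for replicate 2. Mutant minus control was 0.38 in the replicate 1 pair and -0.23 in the replicate 2 pair (log2), and the pairs differed by 0.61. The scaled intensities were 1543 in the mutant and 1186 in the control of the first pair, and 1071 in the mutant and 1251 in the control of the second. Signs opposed between the pairs for 10 of the 38 genes (26.3%), against 34.6% of all genes, Herc6 (-1.61 and 0.05) among them. Each pair held 1 mouse of each genotype, so sex and the single mouse cannot be told apart. The difference between the pairs was not tested.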

How the results depend on the processing

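Under all alternatives run, 17 of the 38 antiviral genes kept 1 sign and 21 did not. No member passed an adjusted p of 0.05 under any of them. The count of members at an unadjusted p under 0.05 was 7, and it became 3 with median centring, 4 without the intensity trend and 10 with quantile normalization, and 1 to 8 without 1 array. The median of the set moved to -0.20 with quantile normalization and ranged from -0.18 to 0.0014 without 1 array. Genes passing an adjusted p of 0.05 numbered 46 of 19325 with the replicate block and 0 with every other setting. Mice of the same number deviated together (r = 0.24 over genes), but with 2 pairs the labels give them a shared number only. With the replicate block 9 members passed an unadjusted p of 0.05, Irf7 and Mx1 added, and the median was -0.08. The unadjusted count over all genes was 1796 (3382 with the block, 3607 without a filter on dim probes and 864 to 2167 without 1 array). A fit with the slide as a block could not be run, since all arrays shared a slide.

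With normexp correction Ifi35 was -0.0018. With quantile normalization Isg15 was -0.10, Parp14 -0.020, Ifi35 -0.064 and the median of all genes -0.00031, and that median was -0.12 without a filter. With median centring Ddx58 was 0.078, Dhx58 0.048, Irf9 0.053, Oas1a 0.016, Oas1g 0.0021, Oasl2 0.027 and Sp100 0.024. With the mean of probes Ddx58 was 0.0050 and Irf9 0.019. Without 1 array the ranges crossed 0 for Ifih1 (-0.32 to 0.0096), Ddx58 (-0.035 to 0.028), Dhx58 (-0.23 to 0.17), Stat2 (-0.041 to 0.19), Irf9 (-0.070 to 0.011), Usp18 (-0.19 to 0.34), Isg15 (-0.13 to 0.34), Herc6 (-1.85 to 0.28), Oas1g (-0.22 to 0.060), Oas2 (-0.51 to 0.16), Oasl1 (-0.20 to 0.032), Ifit2 (-0.16 to 0.32), Eif2ak2 (-0.50 to 0.076), Mx1 (-1.06 to 0.098), Samd9l (-0.58 to 0.17), Parp14 (-0.18 to 0.27), Trim30a (-0.26 to 0.090), Ifi35 (-0.0045 to 0.047), Sp100 (-0.32 to 0.20) and the median of the receptor and kinase genes (-0.021 to 0.046). Called members lost with median centring were Ifit1, Ifit3, Rsad2 and Ifi27, and those lost without the intensity trend were Ifit1, Rsad2 and Oas1b. Irf7 (-0.43), Lgals3bp (-0.39), Rtp4 (-0.26) and Oasl1 (-0.24) passed an unadjusted p of 0.05 with quantile normalization. The cause of these shifts was not tested.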

Other observations

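Interferon-induced genes outside the antiviral set that were higher at an unadjusted p under 0.05 in limma included Psmb8, a catalytic subunit of the immunoproteasome (0.59 ± 0.16), Ube2l6, the conjugating enzyme of Isg15 (0.32 ± 0.11), and Apobec3, a cytidine deaminase gene that restricts retroviruses (0.41 ± 0.16). Both mutants lay above both controls for each of them, as for 25.7% of all genes, and a choice by p favours such genes. None passed an adjusted p of 0.05.

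The median profile of the 38 genes over the arrays, centred per gene, was 0.03 and -0.12 in the mutants and 0.11 and -0.04 in the controls (log2). The named genes outside the set nearest to it among those ranging over at least 0.5 were Srgap1, C230096K16Rik and Mkln1, at distances of 0.203 to 0.209. The profile itself ranged over less than 0.5, so no gene passing that filter could match it closely. The named genes ranged over 0.50 to 0.51, at the edge of the filter. With 4 arrays, this is a description only.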
